A study of Mus musculus with 10 samples.

Results

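The cytosolic ribosomal protein genes encode the protein components of the ribosome that translates nuclear mRNAs. They were taken from the retinal expression table by symbol, as the protein-coding rows named Rplp0, Rplp1, Rplp2, Rpsa, or Rpl or Rps with a number and at most a short suffix of the letters a, x, y and l or a paralogue digit. Pseudogene symbols (-ps) and the S6 kinase genes were left out. The rule found 83 of the 25905 listed genes, 51 of the large subunit and 32 of the small subunit. Another 6 rows carried a fitting symbol without being annotated as protein-coding (Rpl32l, Rpl6l, Rps12l1, Rps3a2, Rps3a3 and Rps4l) and were not members.

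The small subunit of the ribosome decodes the mRNA and the large subunit forms the peptide bonds, and most ribosomal proteins are present once in each ribosome. The mRNAs of many of these genes begin with a C followed by an unbroken run of pyrimidines, the terminal oligopyrimidine tract, through which the mTOR pathway and the RNA-binding protein LARP1 adjust their translation together. Ribosomal protein mRNAs have also left many processed pseudogenes in mammalian genomes, and in the retina photoreceptors renew their outer segments throughout life, which calls for steady protein synthesis.

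RNA was measured in the left and right retinas of 5 wild-type C57BL/6J mice, numbered 61, 64, 65, 66 and 68, at postnatal day 34. All 5 mice had carried a goggle with a -20 dioptre lens over 1 eye for 10 days from postnatal day 24, fitted under ketamine and xylazine, and the fellow eye of the same mouse had none. Each retina is labelled by side, without saying which eye wore the lens, so the groups are 5 left and 5 right retinas, and each side can hold both lens-wearing and untreated eyes. Libraries were made from total RNA after removal of ribosomal RNA.

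The deposited values behave as counts scaled to a common library total (CPM), with 0.0001 added. 1 CPM stood for 89.7 to 113.8 counts. Defining markers of the retina summed to 11165 to 13029 CPM in the 10 libraries. Lens markers ranged from 15.8 to 1024 CPM, highest in the right retina of mouse 65, and skeletal muscle markers from 27.0 to 255 CPM, highest in the left retina of mouse 68. The labels report a damaged raw file, with unequal forward and reverse reads, for the right retina of mouse 64. Of the 83 genes, 78 averaged 1 CPM or more (47 large, 31 small) and were among the 14210 genes tested. The 5 below were Rpl24 at a mean of 0.614 CPM, Rps27 at 0.555, Rpl17 at 0.395, Rpl3l at 0.0225 and Rpl39l at 0.0116, while the lowest genes above it were Rpl23a at 1.12, Rpl27 at 1.37 and Rps27l at 1.55 CPM.

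The start of the transcript is shown for members whose behaviour is described below, because the pyrimidine tract is the feature these mRNAs are known for. RefSeq windows around the annotated transcript start (build GRCm38.p6) were found by symbol for 63 of the 83 genes. Each printed window runs from 10 bases before the start to 20 bases from it, 5′ to 3′ on the strand of the gene. Capitals mark the tract, a C followed only by C or T for at least 5 bases in all, whose first C lies no more than 5 bases from the annotated start. The first 4 genes rose and fell with the others across the libraries, and the last 3 did not.
Rps18: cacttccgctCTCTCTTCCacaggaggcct
Rps15a: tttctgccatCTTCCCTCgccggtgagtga
Rpl38: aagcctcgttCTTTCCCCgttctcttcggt
Rps3: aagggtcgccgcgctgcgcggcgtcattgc
Rpl35: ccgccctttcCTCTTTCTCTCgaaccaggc
Rpl14: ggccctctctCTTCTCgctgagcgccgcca
Rpl35a: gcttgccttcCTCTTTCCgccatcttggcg

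These windows lie at chr17:33955646-33955675 (Rps18, minus strand), chr7:118116128-118116157 (Rps15a, minus strand), chr11:114668570-114668599 (Rpl38, plus strand), chr7:99483690-99483719 (Rps3, minus strand), chr2:39005112-39005141 (Rpl35, minus strand), chr9:120571507-120571536 (Rpl14, plus strand) and chr16:33056472-33056501 (Rpl35a, plus strand). In 6 of the 7 the tract began at the annotated start base, and Rps3 had none by this definition. Rpl35a has 3 listed starts, and the one shown was picked because it carries a tract, while the other 6 genes have 1 start each. At the first listed start, a tract was present in 28 of the 63 genes (44.4%), against 18.5% of all 27025 genes with a window, and it began exactly at the start base in 12 (19.0%), against 2.49%. Among members with a correlation below 0 with the rest, 3 of 6 with a window had a tract at any listed start (2 of 6 at the first), against 25 of 53 of the other tested members. Known promoter motifs were counted on both strands of the whole window, from 250 bases before the start to 50 after it. The ETS-family motif CCGGAAG was found in 25 of 63 members (39.7%) and in 9.12% of all windows. The YY1 motif AAGATGGC, which can share its first 3 letters with the end of CCGGAAG, was found in 5 members (7.94%) and in 2.88% of all windows. The TATA box TATAAA was found in 6 members (9.52%) and in 14.2% of all windows, and the SP1-family motif GGGCGG in 38 (60.3%) and 35.9%. These are matches of letters, and nothing was measured at these sites here.

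The level of a ribosomal protein gene was compared with that of another as mean CPM per kilobase of its principal transcript. Members spread widely around a median of 11.3 CPM per kb, although the proteins are needed in near-equal numbers. Small subunit genes had a median of 20.6 and large subunit genes of 7.88 CPM per kb, but with the matched pseudogene rows described below the medians were 33.1 and 30.1, so most of that gap was not seen. The highest by this length was Rpl41, which encodes a very short basic peptide of the large subunit, at 74.5 ± 9.79 CPM per kb (SD, n = 10 libraries). Rps15, a small subunit protein, followed at 63.8, then Rplp1, an acidic protein of the stalk that recruits translation factors, at 62.0, Rpl8 at 52.5 and Rpl4, which lines the exit tunnel, at 51.8. Per kilobase of the union of all annotated exons Rpl41 was sixth at 27.9, and Rplp1 was the highest at 62.0. Rpl30 at 48.4, Rpl21 at 48.1, Rpl22 at 47.4, Rpl7 at 42.3 and Rps15a at 41.6 CPM per kb completed the highest 10. The lowest 10, from the bottom, were Rpl3l at 0.0164, Rpl39l at 0.0211, Rpl17 at 0.510, Rpl24 at 0.908, Rps27 at 1.61, Rpl23a at 1.995, Rpl12 at 2.04, Rpl27 at 2.24, Rps16 at 2.56 and Rps7 at 2.63. The order is loose. Of the 82 gaps between neighbours in it, 4 exceeded the larger SD of the pair: Rpl34 over Rpl35a, Rps27 over Rpl24, Rpl24 over Rpl17 and Rpl17 over Rpl39l.

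The stalk and its partners illustrate the unevenness. Rplp0, the stalk's anchor, stood at 16.3 CPM per kb, and Rplp1 and Rplp2, which sit on it as dimers, at 62.0 and 8.92. Rplp1 measured 41.8, 34.8, 25.7, 24.6 and 30.6 CPM in the left retinas of mice 61, 64, 65, 66 and 68, and 36.5, 25.5, 31.0, 30.6 and 28.2 CPM in the right, the mouse order used for all values below. Rplp2 measured 4.53, 4.24, 3.02, 3.42 and 3.94 CPM on the left and 4.64, 2.91, 3.48, 3.80 and 3.57 on the right. Both were highest in mouse 61, and left and right overlapped. Rpsa, the small subunit protein also known as the laminin receptor, stood at 40.8 ± 2.92 CPM per kb, Rps6, the substrate of S6 kinase, at 11.3 ± 1.39, and Rps27a, which is made as a fusion with ubiquitin, at 8.28 ± 0.675 (SD, n = 10).

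Paralogues of ribosomal proteins were low but not uniformly so. Rpl3l, the striated-muscle form of Rpl3, was listed at 0 in 4 left and 2 right retinas. Its highest value, 0.181 CPM, was in the left retina of mouse 68, the library with the most muscle marker signal; the part of muscle RNA in this value was not tested. Rpl3 itself measured 24.0 to 40.1 CPM. Rpl39l, known from the testis, reached 0.0322 CPM at most, against 2.65 to 5.54 for Rpl39. Rpl22l1 stood at 4.57 CPM per kb and Rpl22 at 47.4, Rps27l at 3.10 and Rps27 at 1.61, Rpl7l1 at 8.31 and Rpl7 at 42.3. Rpl36al, a retrotransposed copy of Rpl36a, stood above its parent, at 12.8 ± 1.36 against 3.90 ± 0.566 CPM per kb (SD, n = 10), but this order turned with the matched pseudogene rows described next, which brought Rpl36a to 25.9 and left Rpl36al, which has none, at 12.8.

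The spread in level was smaller when pseudogene rows were counted with their parents. Pseudogene rows were matched by sequence to the principal transcripts of the members (blastn, at least 85% identity over at least 70% of the pseudogene), and 404 of the 2925 searched rows had a member as best match. Rows with a -ps symbol were searched whatever their annotation, and 5 of the 126 listed are annotated as protein-coding. Rpl10-ps3 at 24.3 CPM and Rpl9-ps6 at 34.6 are such rows and count as pseudogene rows here. The matched rows held 43.5% to 44.99% of the summed CPM of members and pseudogene rows in every library. In 34 families, 25 of the large and 9 of the small subunit, the pseudogene rows held more CPM than the gene itself, and in 32 of those 34 the largest pseudogene row was at least 99% identical to the parent. Of the 42 other members with a matched row, 19 had a largest row that close. The median level over members rose from 11.3 to 32.5 CPM per kb with the pseudogene rows added. Over all 83 genes the ratio of the 90th to the 10th percentile fell from 16.4 to 8.77, and the SD of the log2 level from 2.13 to 1.97. Without the paralogues Rpl3l, Rpl39l, Rpl22l1, Rpl7l1, Rps27l and Rpl36al (77 genes), the ratio fell from 16.1 to 4.95, and the SD from 1.61 to 1.05. In 2 families matched rows carried the same value in every library, 5 rows for Rpl35a and 2 for Rpl27, so a sum may count the same reads more than once. With such rows counted once, the pseudogene rows of 33 families held more than the gene, Rpl35a no longer being one.

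The lowest members show where the signal was listed. Rpl17 had 0.251 to 0.567 CPM on the left and 0.307 to 0.576 on the right, while its 12 pseudogene rows summed to a mean of 44.9 CPM, so the gene's own row held 0.873% of the family. Rpl19 had a mean of 2.83 CPM and the single row Rpl19-ps11 had 37.9. Rps6 had 9.94 CPM and Rps6-ps4, identical to it over its full length, had 48.9. Rps7 had 2.15 CPM beside 32.5 in Gm6472, Rpl12 had 2.53 beside 27.1 in Gm10275, Rpl5 had 11.7 beside 47.7 in Gm15500, and Rpl10 had 2.39 beside 24.3 in Rpl10-ps3. The other end of the scale was mixed. Among the highest 10, Rpl41 and Rpl8 had no matched row, and the rows of Rplp1 summed to 0.0512 CPM. Rpl21, however, had 32 matched rows summing to a mean of 20.4 CPM, and those of Rps15a and Rpl30 summed to 10.9 and 8.88 CPM. The 7 members with no matched row also included Rplp2, Rpl36al and, at the bottom of the order, Rpl3l and Rpl39l. The matched row of Rps3 had 0.0783 CPM. Rps27 stayed low with its matched row, at 1.74 CPM per kb. A near copy outside the rule, Rps27rt, had 24.2 CPM, and Rpl37rt, a near copy of Rpl37, had 11.4 where Rpl37 had 3.02. Reads shared by a gene and a near-identical copy may have been placed on either row, so the level of a single member is uncertain wherever such a copy exists; how the counting divided them is not given in the sources used here.

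**Figure D1:**
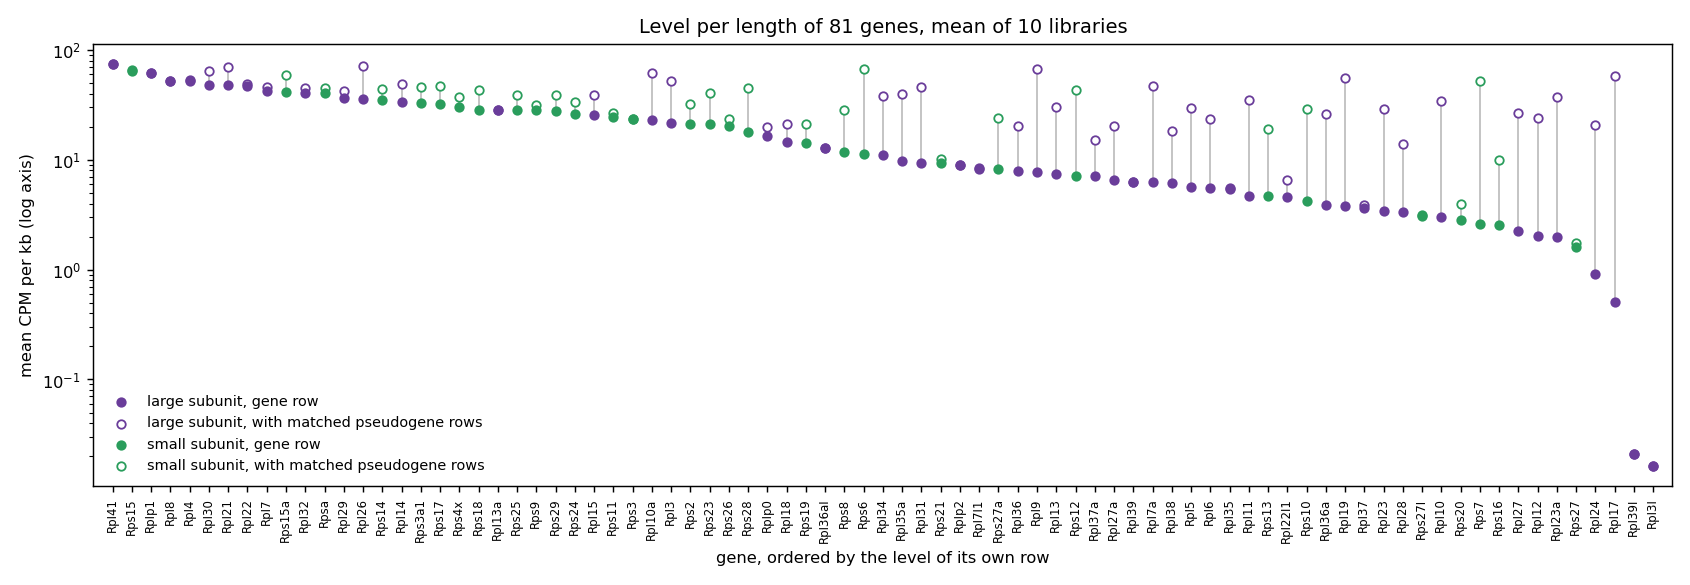
Mean CPM per kb of principal transcript (log axis) of 81 of the 83 genes, ordered from left to right by the level of the gene's own row; filled points are the gene row and open points the gene plus its matched pseudogene rows, purple for the large and green for the small subunit. Open points rise far above filled ones mostly in the lower part of the order, as for Rpl17 (0.510 to 58.5 CPM per kb) and Rps7 (2.63 to 51.9), while Rpl41 at 74.5 has no matched row.

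The summed level of the 83 genes was highest in both retinas of mouse 61. It was 1477, 1258, 1158, 1131 and 1178 CPM in the left retinas and 1361, 1132, 1245, 1222 and 1156 CPM in the right. This was 0.430% to 0.542% of the CPM of listed protein-coding genes, and large subunit genes summed to 1.23 to 1.43 times the small subunit genes. The highest library was 1.31 times the lowest, and 1.22 times after rescaling by the median ratio. The left mean was 1240 ± 140 and the right mean 1223 ± 89.8 CPM (SD, n = 5 each), so the sides differed by less than their spread. In whole retina, a lower value can come from less RNA per cell or from fewer cells of a type that expresses the gene strongly, and these cannot be told apart here.

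The median log2 deviation of the 78 tested genes from their own means was 0.24 on the left and 0.17 on the right in mouse 61, and -0.15 to 0.05 in the other 8 libraries. Over all tested genes it was 0.05 and 0.02 in mouse 61, and -0.03 to 0.02 in the other 8. Of the 78 genes, 72 were above their own mean in the left retina of mouse 61, and 12 in the right retina of mouse 64, the fewest. Mitochondrially encoded transcripts ran the other way. Their median deviation was -0.48 and -0.34 in the retinas of mouse 61 and 0.33 in the right retina of mouse 64, and their sum ranged from 3741 to 5330 CPM. The part of this difference between libraries in the level of the ribosomal protein genes was not tested.

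**Figure D2:**
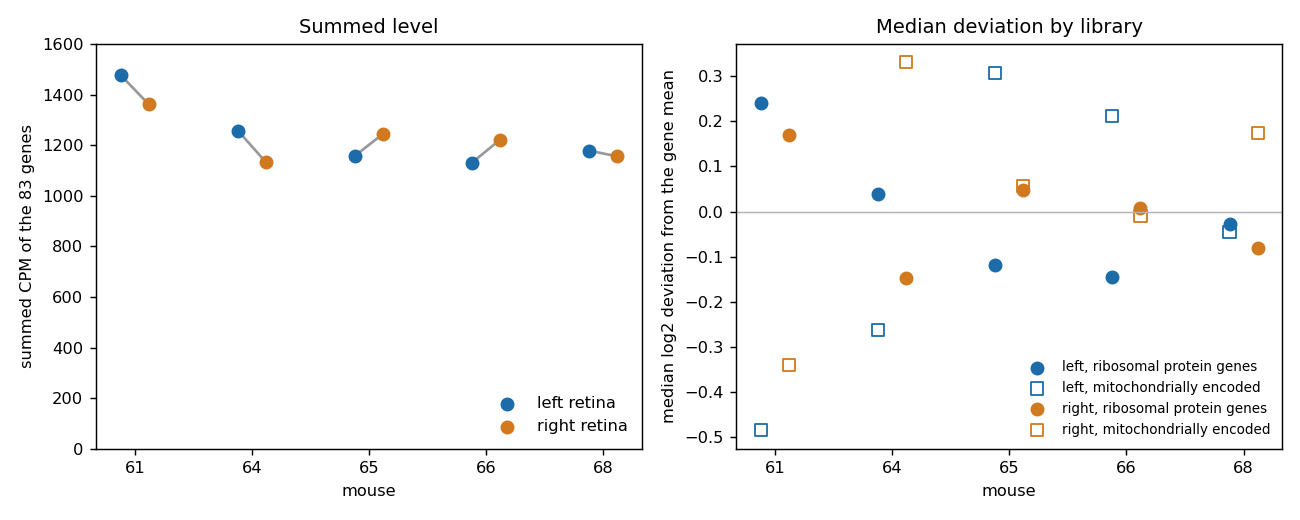
Left panel, summed CPM of the 83 genes by mouse, with the fellow retinas joined by a line; right panel, median log2 deviation from the gene mean of the 78 tested genes (filled circles) and of the 13 mitochondrially encoded genes (open squares), blue for left and orange for right retinas. Mouse 61 has the 2 highest sums, 1477 and 1361 CPM, and its squares are the lowest.

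No ribosomal protein gene was called between right and left retinas. The comparison fitted log2(CPM + 1) in limma with the mouse as a block, two-sided, and p was adjusted by Benjamini-Hochberg over all 14210 tested genes, of which 0.0% were called. At an unadjusted p under 0.05 there were 333 genes in all (2.34%) and 1 member. Of the 78 members, 40 were higher on the right and 38 on the left, which became 52 and 26 without mouse 61, 51 and 27 without mouse 64, 24 and 54 without mouse 65, and 26 and 52 without mouse 66 (over all 5 mice, 51.1% of all genes higher on the right), with differences of -0.28 to 0.14 and a median of 0.001 on the log2 scale, beside 0.0017 over all tested genes. The 95% interval lay within ±0.25 for 51 of the 78 and within ±0.5 for all 78. The scale understates changes of weakly expressed genes.

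That 1 member was Rps21, a small subunit protein with roles in maturation of the small subunit. It measured 5.95, 3.84, 3.50, 3.80 and 3.56 CPM on the left and 3.68, 3.21, 3.33, 2.98 and 2.76 on the right, lower on the right in 5 of 5 mice, while no member was higher on the right in 5 of 5 (2.78% of all tested genes). The ranges of the sides overlapped, and the widest difference within a mouse was in mouse 61. The fitted difference was -0.28 ± 0.08 (SE; limma adjusted p = 0.9996), and a fall in 5 of 5 mice was seen in 2.01% of all tested genes. The next lowest p-values belonged to Rps19 at -0.11, Rpl10a at -0.10, Rps16 at 0.14 and Rpl36al at 0.10, each higher on the right in 2 or 3 of 5 mice. Rps16, for example, measured 3.41, 2.65, 2.29, 2.20 and 2.75 CPM on the left and 3.26, 2.34, 3.60, 2.99 and 2.89 on the right, with overlapping ranges.

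**Figure D3:**
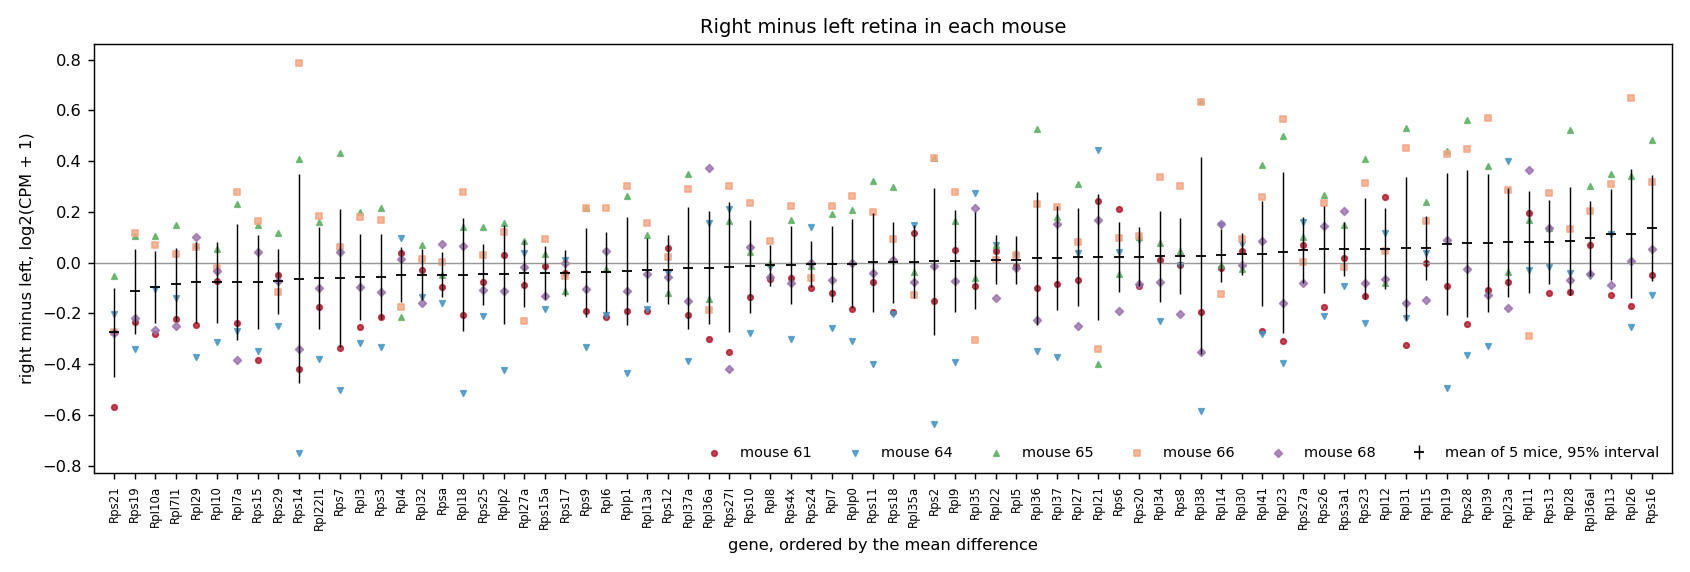
Right minus left difference in log2(CPM + 1) for 76 of the 78 tested genes, ordered by the mean; coloured symbols are the 5 mice, the black dash is the fitted mean and the bar its 95% interval. Means run from -0.28 (Rps21) to 0.14 (Rps16) and the bars lie within ±0.5.

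Within single mice, however, the members tended to differ between the eyes in a shared direction. In mouse 65, 60 of 78 were higher on the right (62.7% of all tested genes), with a median difference of 0.15, and in mouse 66, 63 of 78 were (60.4% of all genes), with a median of 0.16. In mouse 61, 16 of 78 were higher on the right (38.0% of all genes; median -0.10), in mouse 64, 22 (44.1%; median -0.21), and in mouse 68, 24 (47.1%; median -0.07). The mitochondrially encoded genes had medians of the opposite sign in each of the 5 mice, 0.23, 0.62, -0.21, -0.22 and 0.25 in the mouse order above; their part was not tested.

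Differences between fellow eyes in either direction were therefore examined, by comparing the squared differences within the 5 mice, averaged per gene, with the trend over all genes (one-sided). None of the 78 members passed an adjusted p of 0.05, against 0.338% of all genes, while 23 members (29.5%) had an unadjusted p under 0.05, against 4.71% of all genes. The lowest was Rps14, a small subunit protein whose single-copy loss is known from a human anaemia. It measured 36.4, 25.9, 14.3, 12.1 and 20.8 CPM on the left and 27.0, 15.0, 19.3, 21.6 and 16.2 on the right. The left eye was higher in mice 61, 64 and 68 and the right in mice 65 and 66, and the highest library was 3.01 times the lowest. The root mean square difference was 0.57 (adjusted p = 0.059 by the trend prior of limma). The adjusted p was 0.0491 after rescaling to the protein-coding sum and 0.0405 without mouse 65, and ranged from 0.0405 to 0.687 over the alternatives. On simulated data this test also called unchanged genes, but the simulation cannot show whether its threshold holds, as given with the processing below.

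Other members with large differences between fellow eyes kept the same signs by mouse. Rps2, at the mRNA entry of the small subunit, measured 28.2, 25.8, 16.3, 16.8 and 20.2 CPM on the left and 25.3, 16.3, 21.96, 22.7 and 19.97 on the right (root mean square 0.39, limma adjusted p = 0.243). Rpl38, known for its part in translating Hox mRNAs, measured 4.14, 2.21, 1.03, 1.21 and 1.97 CPM on the left and 3.50, 1.14, 2.15, 2.43 and 1.33 on the right (0.51, limma adjusted p = 0.603). In both genes the right eye was the higher in mice 65 and 66 and the lower in mice 61, 64 and 68. Rpl23 at 0.41 and Rps28 at 0.38 were also among the 6 largest. Rpl21 had the opposite signs, higher on the right in mice 61, 64 and 68, with 35.1, 36.7, 54.4, 51.9 and 37.8 CPM on the left and 41.7, 50.3, 41.0, 40.8 and 42.6 on the right (0.34, limma adjusted p = 0.26).

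Between mice, the members differed mainly through mouse 61, where most were high. The moderated F-test over the mouse terms called 81 of all genes (0.57%) and 0 of the 78 members after adjustment. At an unadjusted p under 0.05 it found 29 members (37.2%), against 13.8% of all genes. The lowest member was Rps29, a zinc-binding small subunit protein (adjusted p = 0.179, limma). It measured 13.8, 10.3, 9.66, 10.6 and 11.2 CPM on the left and 13.4, 8.55, 10.5, 9.67 and 10.6 on the right. Both of its mouse 61 values lay above the other 8. That was so for 39 of the 78 members (50%), against 13.2% of all tested genes, and 59 members had their highest mouse mean in mouse 61, against 40.0%. With mouse 61 left out, 2 members (2.56%) had an unadjusted p under 0.05, against 6.36% of all genes tested.

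The median range of mouse means was 0.35 over members and 0.21 over all tested genes on the log2 scale, and without mouse 61 it was 0.16 and 0.15. The widest 6 included Rpl38 (0.93), Rps14 (0.91), Rpl36 (0.77), Rpl19 (0.61) and Rps19 (0.60). Rps19, the gene most often mutated in Diamond-Blackfan anaemia, measured 13.1, 10.1, 7.30, 7.60 and 9.56 CPM on the left and 11.01, 7.77, 7.94, 8.34 and 8.07 on the right. Both retinas of mouse 61 stood above the other 8 libraries. The narrowest ranges were those of Rpl7l1, Rpl14 (0.10 each) and Rpl36a (0.14). Rpl14, a large subunit surface protein, measured 32.5, 31.8, 34.8, 36.2 and 31.2 CPM on the left and 32.0, 35.3, 34.6, 33.1 and 34.7 on the right, with no mouse standing apart.

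Members have short transcripts, with a median of 705 bases over the 78 tested, and short transcripts in general were higher in mouse 61. Of 701 other protein-coding genes with a principal transcript under 1000 bases, 55.8% had their highest mouse mean in mouse 61, against 40.3% of 11002 longer ones. Among the members it was 78.3% of 60 short and 66.7% of 18 longer genes. Both mouse 61 retinas stood above the other 8 in 17.7% of the short and 13.4% of the longer non-members. This was so in 55.0% of the short members and in 33.3% of the longer members. The median deviation in the left retina of mouse 61 was 0.13 in short and 0.05 in longer non-members, and 0.26 in short and 0.20 in longer members. The part of transcript length in the members' differences was not tested further.

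Across the 10 libraries most members rose and fell together. Each gene's deviations were correlated with the mean of the other members, as a description over libraries that share mice, depth and composition. The median correlation was 0.82, beside 0.26 over all tested genes, and 42 of 78 exceeded 0.8, against 11.2% of all genes. The closest to the common course were Rpl7 at 0.99, Rps3, a small subunit protein that also takes part in DNA repair, at 0.98, Rps9 at 0.98 and Rpl13a at 0.97. Rpl7 measured 64.7, 50.7, 44.4, 41.1 and 46.4 CPM on the left and 59.5, 42.3, 50.8, 48.1 and 44.2 on the right. Without mouse 61 the median correlation was 0.61, and 27 genes exceeded 0.8.

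A set of 9 members did not follow, and all of them belong to the large subunit, which holds 47 of the 78 tested genes. Their correlations included -0.85 for Rpl35, -0.77 for Rpl21, -0.64 for Rpl14, -0.36 for Rpl35a, -0.28 for Rpl36a, -0.22 for Rpl4, -0.13 for Rpl23a and -0.05 for Rpl11, and 35.5% of all tested genes were below 0. Rpl35, which sits near the exit of the peptide tunnel, measured 4.12, 5.36, 5.38, 5.83 and 4.82 CPM on the left and 3.81, 6.70, 5.12, 4.54 and 5.75 on the right. It was lowest in both retinas of mouse 61 and highest in the right retina of mouse 64, the reverse of most members. Rpl4 measured 80.1, 76.9, 89.8, 83.5 and 74.7 CPM on the left and 82.4, 82.3, 77.3, 73.8 and 75.4 on the right, with mouse 61 inside the range of the others. The same 9 were below 0 after rescaling by the median ratio. Without mouse 61 they were again below 0, with 5 more. The starts of Rpl35, Rpl14 and Rpl35a printed above carry tracts like those of Rps18 and Rpl38. By the definition used, Rpl11, Rpl36a and Rpl4, also below 0, carry none, and neither does Rps3, close to the common course. The printed starts are picked examples, and the counts over members are given with them.

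**Figure D4:**
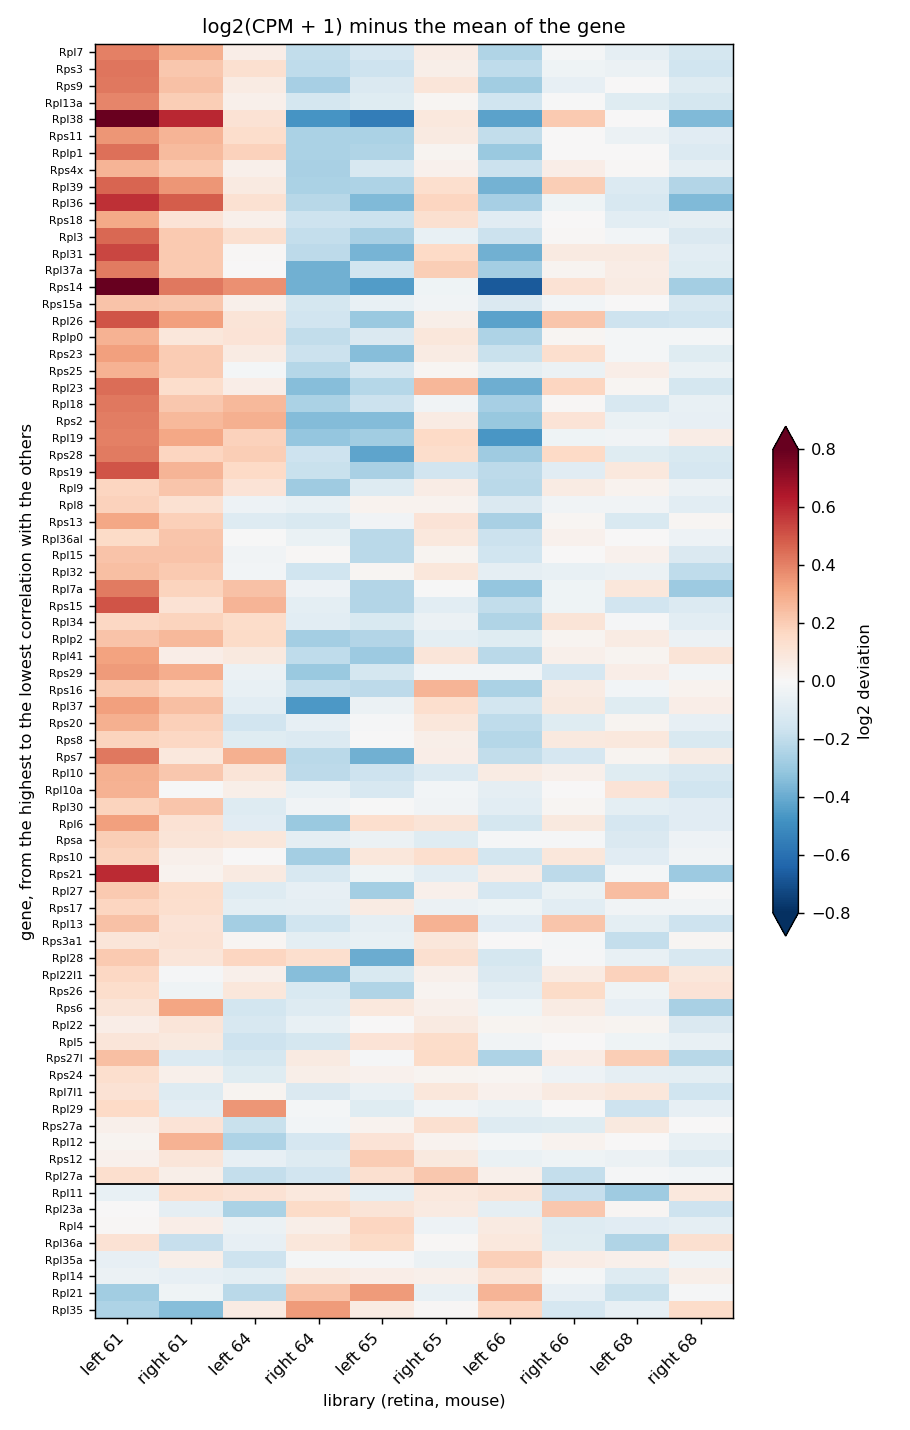
Deviation of log2(CPM + 1) from the mean of the gene in the 10 libraries (columns, retina and mouse) for 76 of the 78 tested genes (rows, from the highest to the lowest correlation with the other members); red is above and blue below the mean, and colours saturate at the ends of the scale. The 2 left columns, mouse 61, are red in most rows above the black line, and the 8 large subunit genes below the line lack this pattern.

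Pseudogene rows of these genes often followed a different course. Of the 9, 8 have pseudogene rows that sum to at least 1 CPM, and for 7 of the 8 that sum correlated above 0 with the other members where the gene's own row did not. A sum above 0 was usual and not particular to these genes, since 9 of the 62 families with such a sum had one below 0. The sum for Rpl35a correlated at 0.97 and its own row at -0.36, and the values were 0.80 and -0.22 for Rpl4 and 0.78 and -0.13 for Rpl23a. Rpl35a measured 4.53, 4.18, 4.75, 5.61 and 4.97 CPM on the left and 5.00, 4.74, 4.60, 5.04 and 4.67 on the right. Its pseudogene rows summed to 17.2, 15.3, 13.8, 13.5 and 14.6 CPM on the left and 16.1, 12.7, 15.0, 15.0 and 13.9 on the right, highest in both retinas of mouse 61. The 5 rows of equal value made up a mean of 13.7 of the 14.7 CPM, and counted once they left a sum of 3.74 CPM, with a correlation of 0.91. The reverse was also seen: the pseudogene sums of Rpl26, Rpl19 and Rpl38 correlated at -0.54, -0.35 and -0.29 where the genes stood at 0.93, 0.90 and 0.97. Over the 62 families with such a sum, the median correlation was 0.81 with the other members and 0.55 with the family's own gene. Rpl35 is not among them, since its 2 matched rows sum to 0.153 CPM. Transcript length, GC content and the number of small nucleolar RNA genes inside the gene had rank correlations of -0.11, 0.16 and -0.13 with a member's correlation, over 78 genes.

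Other parts of the translation machinery were counted beside the members. No gene of the lists below was called between right and left retinas, as in the whole table. A list of ribosomal and accessory proteins outside the symbol rule (6 tested, among them Fau, Rack1, Rps27rt, Rpl37rt and Rsl24d1) had a median correlation of 0.91 with the members, with 5 of 6 above 0.8. Rack1, a scaffold at the head of the small subunit, ranged from 38.5 to 56.9 CPM and correlated at 0.97. Of 9 elongation factors 5 exceeded 0.8, among them Eef1a1, which delivers aminoacyl-tRNA, at 349 to 458 CPM, and Eef2, which drives translocation, at 238 to 304 CPM. Eef1a2, the form typical of neurons and muscle, stood at -0.77.

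Of 25 other mRNAs known for a pyrimidine tract, 10 exceeded 0.8 (median 0.70), with Naca at 0.93 and Pabpc1, the poly(A)-binding protein, at -0.77. The 11 tested snoRNA host transcripts had a median of 0.49, 78 mitochondrial ribosomal proteins of 0.48 with 9 above 0.8, 21 regulators of ribosomal protein synthesis of 0.41, 33 initiation factors of 0.28 and 49 ribosome assembly factors of 0.16. Among the regulators, Mtor correlated at 0.85 and Larp1 at 0.41. The 13 mitochondrially encoded genes had a median of -0.91. In the right against left fit, an unadjusted p under 0.05 was seen in 2.34% of all tested genes. In these lists it was seen for Mrps12 and Mrps27 at -0.18 and Mrps22 at 0.20 on the log2 scale (of 78). The others were Larp4 at 0.10 (of 21), Heatr1 at 0.12 (of 49) and Eif1b at 0.12 (of 33). Between mice, 1 of 33 initiation factors was called, against 0.57% of all genes. Between fellow eyes, 2 of the 13 mitochondrially encoded genes were called, against 0.338% of all genes.

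**Figure D5:**
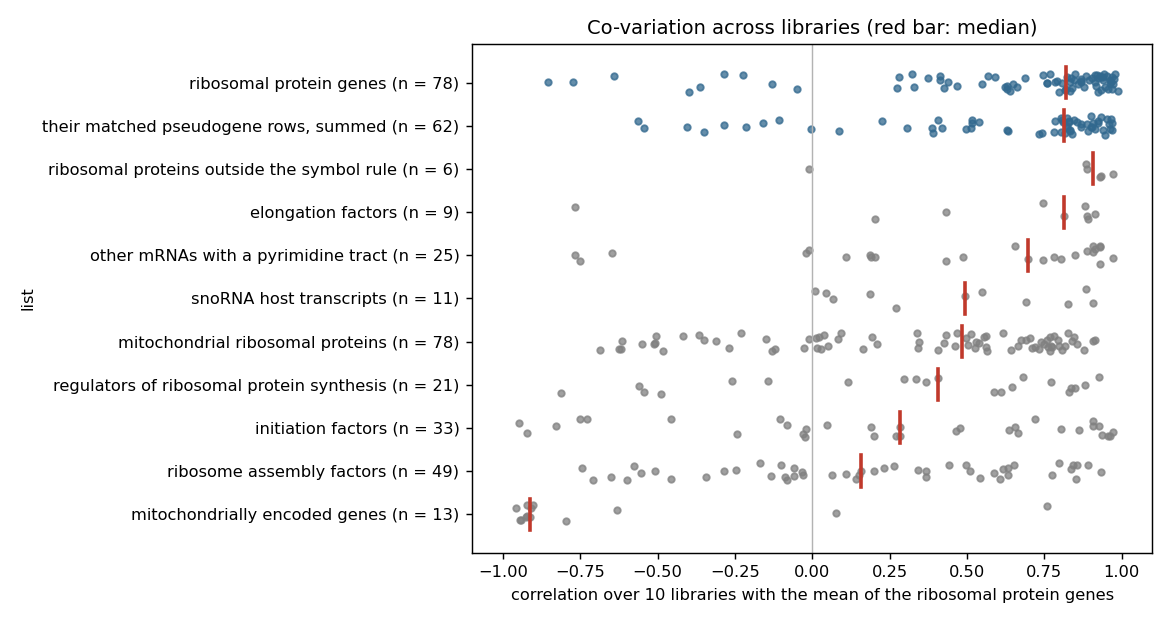
Correlation over 10 libraries with the mean of the ribosomal protein genes (for a member, of the other members), 1 point per tested gene or, in the second row, per summed set of matched pseudogene rows; red bars are medians and vertical scatter within a row carries no meaning. Members (median 0.82) and their pseudogene sums (0.81) lie mostly to the right with a tail below 0, and mitochondrially encoded genes (median -0.91) lie to the left.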

How the data were processed

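RNA from 10 retinas (left and right of 5 mice) was analysed. Per the labels' protocols, libraries came from total RNA depleted of ribosomal RNA with a strand-specific kit. The submitters' processing notes name STAR, Partek and GRCm38 (mm10). Versions and the rule for reads with several positions are not stated there. The deposited values are read as CPM from their steps, since after subtraction of the 0.0001 that the authors added, 90.4% to 91.5% of low values were multiples of 1 step within a tolerance of 0.1 of a step. Too many were not whole for a count test.

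Values were tested as log2(CPM + 1), with genes of a mean of at least 1 CPM, in limma 3.58.1 (R 4.3.3) with a variance prior that follows the trend and Benjamini-Hochberg adjustment at 0.05. The block is the animal, since each mouse gave both retinas, whose deviations correlated across genes at 0.61, 0.14, 0.17, 0.17 and 0.31. Lengths come from GENCODE M21, whose start and end matched the deposited ones for 83 of 83 members. Pseudogene rows were matched with BLAST 2.17.0. The fits were tested on simulated data: of 200 changed genes among 14210, the right against left fit recovered 43.5% at a log2 change of 0.25 and 97.0% at 0.5. The test between mice recovered 0% and 68.5%, and that between fellow eyes 1.5% and 27.5%. Calls of unchanged genes at 0.25 and 0.5 were 7 and 13 for right against left, 1 and 24 between mice, and 31 and 28 between fellow eyes. Changed genes recovered beside them were 87 and 194, 0 and 137, and 3 and 55, in the same order. In each test, unchanged genes thus made up more than 0.05 of the calls, by the least for right against left. Each gene was simulated with its own spread, while the test between fellow eyes asks whether a spread exceeds the trend. An unchanged gene of wide spread can therefore be called, so the simulation cannot show whether the threshold of that test holds.

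Named members are those called, the 10 highest and 10 lowest per kb, those with 1 sign in 5 of 5 mice, the 6 widest and 3 narrowest in mouse range, the 6 with the largest difference between fellow eyes, paralogue pairs and the stalk, and of each list the genes with the lowest p and highest level. Some genes these rules select are not reported here. Members in the co-variation, sequence and pseudogene paragraphs were chosen after their values were seen. Members and lists were chosen with earlier results of these data known. Alternatives varied the pseudocount, filter, scaling, prior, block and mice. The retinas of a mouse are paired, so the right against left p-values measure the spread of the differences within these 5 mice. The p-values between mice set the mouse means against the differences between fellow eyes. Those between fellow eyes set a gene against the trend over all genes.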

Additional observations from a re-analysis of the deposited data

Results flagged for a closer look

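In groups of 5 libraries, a library far from the other 4 of its side was seen in 8 of 90 groups tested for the named members and their sum. For a single group chance gives about 1 in 20, but that rate cannot be set against this count. Many members were named for extreme values in these same libraries, and most members rise and fall together. In the right retina of mouse 64, the library with the damaged raw file, Rpl21 was high at 50.3 CPM (others 40.8 to 42.6), Rpl22l1 low at 1.77 CPM (others 2.48 to 2.72) and Rpl41 low at 27.9 CPM (others 33.3 to 34.9). In mouse 61, Rps21 was high on the left at 5.95 CPM (others 3.50 to 3.84) and Rps19 high on the right at 11.01 CPM (others 7.77 to 8.34). Rpl22 was low in the left retina of mouse 64 at 20.5 CPM (others 22.5 to 23.3). Rpl17 was high in the right retina of mouse 66 at 0.576 CPM (others 0.307 to 0.376). Rpl3l reached 0.181 CPM on the left in mouse 68 and was listed at 0 in the other 4 left retinas.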

How the results depend on the processing

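No gene and no member was called between right and left under the main setting or any of 13 alternatives. Without the replicate block the count was 0 as well, with 188 genes and 1 member at an unadjusted p under 0.05. Leaving out 1 mouse moved the members' median difference between -0.05 and 0.03. Genes called between mice fell from 81 to 36 with a prior without a trend and ranged from 23 to 88 without 1 mouse (23 without mouse 61, 39 without 68, 53 without 66), and members called remained at 0. Genes called between fellow eyes fell from 48 to 19 with a filter of 5 CPM and to 8 with a prior without a trend, and ranged from 23 to 54 without 1 mouse (23 without mouse 68, 30 without 65). Members called between fellow eyes were 1, Rps14, after rescaling to the protein-coding sum, and 0 to 1 without 1 mouse (1 without mouse 65). The cause of these shifts was not tested. The median level of 11.3 CPM per kb became 4.15 with the length of the exon union and 32.5 with pseudogene rows (31.7 with rows of equal value counted once), alternatives chosen after seeing the data, as was leaving out mice in the co-variation, where 7 to 14 members were below 0 (14 without mouse 61). Low depth limits Rpl3l and Rpl39l, at a few counts per library.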
